A study of Mus musculus with 2 samples.

Results

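TRIM genes encode tripartite motif proteins, and they were described here in single cells of mouse brains as a gene family. Members were all genes whose symbol is Trim, a number and at most 1 lower-case letter, which gave 68 of the 32285 genes listed. A member was measured in a cell class when it had at least 20 unique molecular identifiers (UMIs, counted RNA molecules) over both libraries in that class, and 46 of the 68 were measured in at least 1 of 11 classes. In microglia-like cells 44 were measured, with Trim6 just inside that minimum at 16 UMIs in the KO library and 7 in the WT library, and Trim67 just outside it at 12 and 7. The 22 members measured in no class had between 0 UMIs (Trim75) and 84 UMIs (Trim67, 50 in the KO library and 34 in the WT library) in all barcodes.

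Most TRIM proteins carry a RING finger, B-boxes and a coiled coil, and act as ubiquitin E3 ligases through the RING. Several are induced by interferon and either restrict viruses directly, as human TRIM5 does with retroviral capsids, or tune the pathways by which RIG-I, MDA5, cGAS, STING and Toll-like receptors lead to interferon and NF-kappaB. Others bind chromatin, the cytoskeleton or neuronal proteins, and the family differs between mammals because a cluster of antiviral members has been duplicated in rodents.

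The series compared 1 library of mice labelled CD200R1-/- (KO) with 1 library of wild-type mice (WT). CD200R1 restrains myeloid cells when it binds CD200, and the labels name its part in neuroinflammation as the question. Per the labels, both groups were C57BL/6J mice aged 18 months that received no treatment, brains were perfused with saline and dissociated enzymatically, and CD11b-positive cells were drawn out with magnetic particles before 3-prime droplet sequencing. The number of mice behind a library and the deleted part of Cd200r1 are not given in the labels. With 1 library per genotype, the genotype and the library cannot be told apart, and no difference below has a replicate check. Cd200r1 itself had 1388 UMIs, or 11.96 UMIs per 1000000 (CPM), in kept cells of the library labelled KO and 1477 UMIs, or 12.7 CPM, in the library labelled WT. Its level in microglia-like cells was 21.1 CPM in the KO library and 23.2 CPM in the WT library. Among CNS-associated macrophage-like cells the level was 22.9 CPM in the KO library and 34.9 CPM in the WT library, and in T cell-like cells 57.4 and 32.04 CPM. These counts of transcript ends do not check the label, since the deleted part is not known, and KO and WT below name the libraries as labelled.

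The matrices held 19159 barcodes and 131196245 UMIs in the KO library and 18228 barcodes and 127429919 UMIs in the WT library, with barcode numbers equal to the cell numbers in the study's design text, and 103 barcode sequences occurred in both. After filtering, 16935 KO and 16427 WT cells were kept, of which 4574 KO and 5542 WT cells fell in clusters that markers did not name. The named classes held 4163 KO and 3554 WT microglia-like cells, 1029 and 660 CNS-associated macrophage-like cells, and 2680 and 2777 endothelial-like cells, so that many of the kept cells carried markers of cells other than the CD11b-positive ones selected. The other classes compared were mural, astrocyte, ependymal or choroid plexus, T cell, B cell, monocyte, neutrophil and fibroblast-like, with 75 to 1377 cells a library. Ependymal or choroid plexus markers had RNA in every class, and their sum in microglia-like cells was 3029 CPM in the KO library and 1949 CPM in the WT library.

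In microglia-like cells of the KO library the TRIM genes of a single stretch of chromosome 7 were present at up to 2.98 times their WT level, together with Trim25 and Trim14, while the other 34 measured members stayed under the size called. Changes below are log2 of the ratio of (KO CPM + 10) to (WT CPM + 10), a scale that understates the change of low genes. A member was called higher or lower when this log2 change reached 0.32 in that direction. By this rule 10 of the 44 measured members were higher and 0 lower. Among all 16130 genes measured in the class, 1.1% were higher and 1.22% lower. The median log2 change was 0.05 over the 44 members and 0.0022 over all genes, so the family as a whole sat near no change. The 10 were Trim30a, Trim30d, Trim30c, Trim12a, Trim34a, Trim12c, Trim30b and Trim5 of chromosome 7, and Trim25 and Trim14.

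**Figure D1:**
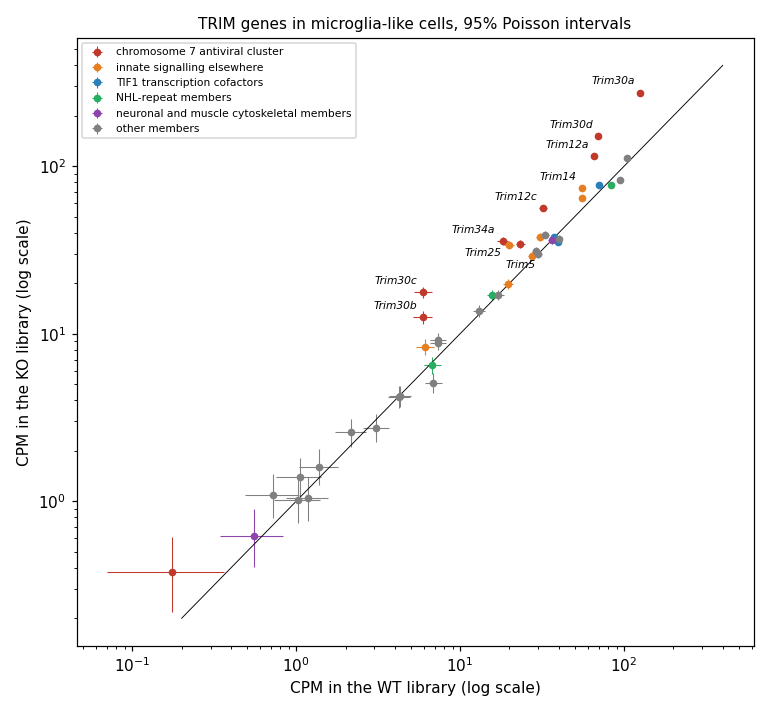
CPM of each of the 44 measured TRIM genes in microglia-like cells, KO library on the vertical axis and WT library on the horizontal axis, both log scales, with 95% Poisson intervals and the line of equal level. The 10 labelled genes, 8 of them in the chromosome 7 cluster, lie above the line, and the TIF1, NHL-repeat and cytoskeletal genes lie along it.

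The chromosome 7 cluster holds 10 of the 68 members within 289 kb (GRCm38 chr7:104218793-104507849), 3 on the plus strand and 7 on the minus strand. Mouse Trim30a, a protein known to dampen Toll-like receptor signalling to NF-kappaB, had 11626 UMIs and 275 (270.2 to 280.2) CPM in the KO library, with 95% Poisson intervals in parentheses, against 4987 UMIs and 125 (121 to 128) CPM in the WT library. Its log2 change was 1.08, and the plain ratio of CPM was 2.21 (2.14 to 2.28) with an exact interval for counting error. Its neighbour Trim30d reached 151 (147 to 155) CPM in the KO library against 69.2 (66.7 to 71.8) CPM in the WT library, a log2 change of 1.02. Both genes thus stood at more than 2 times their WT level, far outside the counting error of either library.

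The other members of the Trim30 group were much less deeply sampled and moved the same way. Trim30c had 17.6 (16.4 to 18.9) CPM in the KO library and 5.92 (5.19 to 6.73) CPM in the WT library, a plain ratio of 2.98 (2.57 to 3.46) that the log2 change on the CPM + 10 scale, 0.80, understates. Trim30b had 12.5 (11.5 to 13.7) CPM in the KO library and 5.90 (5.17 to 6.70) CPM in the WT library, with a log2 change of 0.50. No pair of intervals overlapped in these 4 genes.

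Trim12a, Trim12c and Trim5 are the mouse relatives of human TRIM5, the capsid-binding restriction factor. Trim12a had 115 (112 to 118) CPM in the KO library and 65.4 (62.9 to 67.9) CPM in the WT library, a log2 change of 0.73. Trim12c had 56.4 (54.1 to 58.7) CPM in the KO library and 31.9 (30.1 to 33.7) CPM in the WT library, a log2 change of 0.66. Trim5 had 34.4 (32.7 to 36.2) CPM in the KO library and 23.3 (21.8 to 24.8) CPM in the WT library, and its change of 0.42 was the smallest of the 8 cluster genes called. Trim34a, whose human relative TRIM34 acts with TRIM5 against some lentiviruses, had 35.8 (33.98 to 37.6) CPM in the KO library and 18.2 (16.9 to 19.5) CPM in the WT library (log2 change 0.70).

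Trim6, which in human cells builds ubiquitin chains that activate the kinase IKK-epsilon, was almost without RNA in microglia-like cells, at 0.379 (0.216 to 0.615) CPM in the KO library and 0.175 (0.0703 to 0.360) CPM in the WT library, and its intervals overlapped. Trim34b stayed under the minimum, with 13 UMIs in the KO library and 0 in the WT library. Over the 9 measured cluster genes the median log2 change was 0.70.

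Parts of the cluster are near-identical, and how reads that match several copies were counted is not given in the sources used here. Of the 90-base windows in the last 500 bases of the annotated transcripts, 17.8% of those of Trim30a also occurred in Trim30d, 15.7% of those of Trim5 in Trim12c, and 14.6% of those of Trim34a in Trim34b. For Trim12a the share was 1.29%. Values of single members of these pairs are therefore uncertain. The shares do not give the size of that uncertainty, since windows were not weighted by where reads fall.

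**Figure D2:**
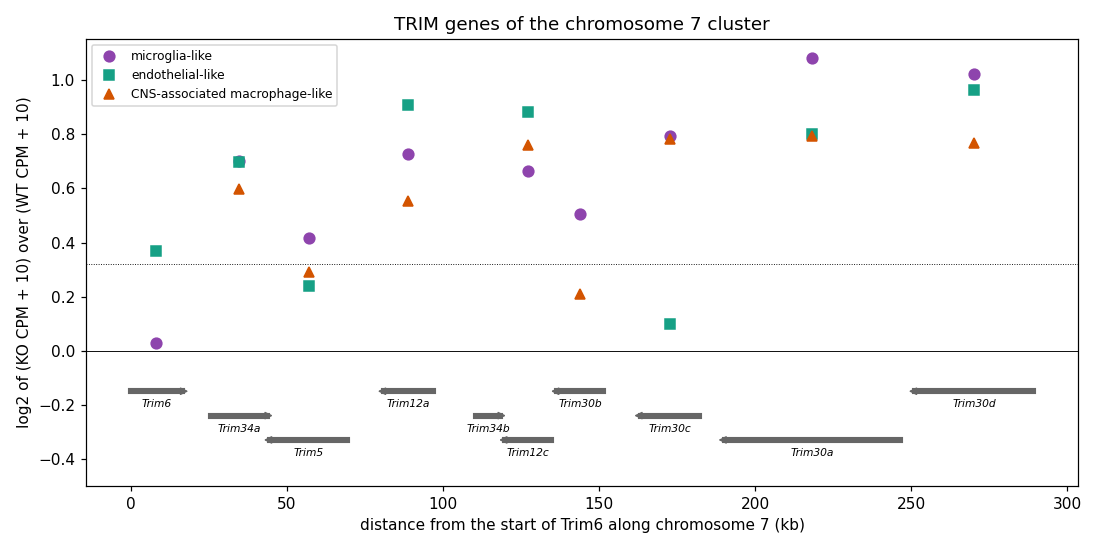
Log2 change of the measured cluster genes in 3 classes (circles microglia-like, squares endothelial-like, triangles CNS-associated macrophage-like) against position in kb from the start of Trim6, with the genes drawn to scale as bars and arrows for strand. The dotted line marks a log2 change of 0.32, and Trim34a, Trim12a, Trim12c, Trim30a and Trim30d lie above it in all 3 classes. Trim34b was not measured in any of them and Trim6 is shown where it was measured.

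Promoters of this cluster are shown because its members moved together. RefSeq promoters (GRCm38.p6, 250 bases before to 50 after the transcript start) were found for 53 of the 68 members and searched on both strands for the core letters of the interferon-stimulated response element, GAAA, any 2 bases, GAAA, and of the gamma-activated site, TTC, any 3 bases, GAA, allowing overlaps. The response element letters were present in 3.44% of all 32851 mouse promoters and in those of 9 members, Trim12a, Trim12c, Trim2, Trim21, Trim26, Trim30a, Trim30d, Trim34a and Trim5. Of the 10 genes higher in microglia-like cells, 9 had an entry and 6 held the letters. Of the 34 within the limits, 24 had an entry and 3 held them. In endothelial-like cells 6 of the 9 higher members held them, and in CNS-associated macrophage-like cells 5 of the 6. The gamma-activated site letters were present in 8.30% of all promoters and in 6 members with an entry, of which Trim30c was the only member of the 10 called. Below, capitals mark matches of the response element letters, which on the printed strand read as the reverse complement, and the promoters lie at chr7:104465144-104465443 (Trim30a, minus strand), chr7:104507800-104508099 (Trim30d, minus), chr7:104400729-104401028 (Trim30c, minus, higher in the KO library without the letters), chr7:104315446-104315745 (Trim12a, minus), chr7:104353300-104353599 (Trim12c, minus) and chr7:104244207-104244506 (Trim34a, plus).
Trim30a: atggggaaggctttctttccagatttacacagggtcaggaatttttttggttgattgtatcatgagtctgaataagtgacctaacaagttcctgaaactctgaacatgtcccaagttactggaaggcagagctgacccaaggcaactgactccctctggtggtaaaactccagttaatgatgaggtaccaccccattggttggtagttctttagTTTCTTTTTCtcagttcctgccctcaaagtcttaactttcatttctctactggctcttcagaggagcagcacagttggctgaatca
Trim30d: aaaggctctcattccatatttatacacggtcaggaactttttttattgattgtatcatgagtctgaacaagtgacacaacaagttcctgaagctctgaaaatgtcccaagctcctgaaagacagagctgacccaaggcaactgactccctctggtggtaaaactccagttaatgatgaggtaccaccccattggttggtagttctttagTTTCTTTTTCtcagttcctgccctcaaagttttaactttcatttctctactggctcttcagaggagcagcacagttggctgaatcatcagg
Trim30c: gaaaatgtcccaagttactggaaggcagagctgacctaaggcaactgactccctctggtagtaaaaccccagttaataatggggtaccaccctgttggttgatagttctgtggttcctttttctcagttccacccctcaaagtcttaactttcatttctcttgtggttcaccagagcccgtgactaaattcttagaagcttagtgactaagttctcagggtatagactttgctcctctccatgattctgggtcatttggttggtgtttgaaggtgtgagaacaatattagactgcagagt
Trim12a: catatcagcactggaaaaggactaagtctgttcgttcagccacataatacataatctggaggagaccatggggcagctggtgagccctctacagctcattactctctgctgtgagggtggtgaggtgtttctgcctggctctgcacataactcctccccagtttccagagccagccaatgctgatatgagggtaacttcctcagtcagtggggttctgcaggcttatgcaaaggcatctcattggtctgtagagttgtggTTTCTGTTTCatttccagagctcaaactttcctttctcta
Trim12c: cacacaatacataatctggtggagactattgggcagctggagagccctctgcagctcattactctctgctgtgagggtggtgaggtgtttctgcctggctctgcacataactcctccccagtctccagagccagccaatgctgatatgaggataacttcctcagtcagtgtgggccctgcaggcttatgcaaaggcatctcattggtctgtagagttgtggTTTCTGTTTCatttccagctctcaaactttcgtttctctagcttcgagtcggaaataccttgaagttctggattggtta
Trim34a: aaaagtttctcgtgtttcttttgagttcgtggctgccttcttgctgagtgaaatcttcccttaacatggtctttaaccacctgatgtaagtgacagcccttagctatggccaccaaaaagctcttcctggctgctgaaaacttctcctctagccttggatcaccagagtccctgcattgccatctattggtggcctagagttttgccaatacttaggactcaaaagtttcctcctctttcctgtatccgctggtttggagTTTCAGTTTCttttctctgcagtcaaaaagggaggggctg

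The match began 36 bases before the annotated start in the printed Trim30a promoter, 41 before it in Trim30d, 29 before it in Trim12c and 49 before it in Trim5, and it lay 10 bases past the start in Trim12a and Trim34a. The same 10 letters, TTTCTTTTTC, were matched in Trim30a and Trim30d, and TTTCTGTTTC in Trim12a, Trim12c and Trim5, whereas Trim34a held TTTCAGTTTC. The longest run of bases shared was 241 between Trim12a and Trim5, 118 between the printed Trim30a promoter and Trim30d, and 71 between Trim12a and Trim12c, so these matches are not independent of each other. RefSeq lists a second promoter of Trim30a (chr7:104446076-104446375, minus strand, not printed), in which the same letters lie 2 bases past the start and the longest run shared with Trim30d is 31 bases. A match describes the letters of the reference and nothing about binding.

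Outside the chromosome 7 cluster, the members that act in nucleic acid sensing and interferon signalling were higher in part. Of these, Trim21 also lies on chromosome 7, but outside the cluster. Trim25, the E3 ligase that modifies RIG-I and attaches ISG15, had 33.7 (32.02 to 35.5) CPM in the KO library and 19.8 (18.4 to 21.2) CPM in the WT library, a log2 change of 0.55. Trim14, a member without a RING that serves as an adaptor at MAVS and protects cGAS, had 74.3 (71.8 to 76.98) CPM in the KO library and 55.4 (53.1 to 57.8) CPM in the WT library, a log2 change of 0.37. Both changes lay outside the counting error, and they were the 2 of the 7 measured genes of this group that were called.

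The other 5 stayed under the size called. Trim56, which acts on STING and cGAS, had 37.8 (36.01 to 39.7) CPM in the KO library and 30.7 (28.97 to 32.4) CPM in the WT library, with a log2 change of 0.23. Trim21, the cytosolic antibody receptor, had 8.33 (7.48 to 9.25) CPM in the KO library and 6.10 (5.36 to 6.91) CPM in the WT library, with a log2 change of 0.19 and a plain ratio of 1.37 (1.16 to 1.62). Neither pair of intervals overlapped. Trim26, a regulator of IRF3, had 64.3 (61.9 to 66.7) CPM in the KO library and 55.7 (53.4 to 58.04) CPM in the WT library, a log2 change of 0.18, also with intervals apart. Trim65, an activator of MDA5, had a log2 change of 0.06, and Trim23, which also carries an ARF domain, of 0.01, both with overlapping intervals. Trim31 and Trim38 were not measured in any class, with 8 and 3 UMIs in all KO barcodes and 3 and 3 in all WT barcodes.

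Many of these proteins act on the sensors of foreign RNA and DNA and on their adaptors. Of a list of 11 such partners, 3 were higher in microglia-like cells and 0 lower, and the median log2 change was 0.08. Those 3 were the cytosolic RNA sensors, Ddx58 (RIG-I) at 59.4 CPM in the KO library and 29.7 CPM in the WT library, Ifih1 (MDA5) at 51.2 CPM in the KO library and 30.3 CPM in the WT library, and Dhx58 (LGP2) at 22.5 CPM in the KO library and 8.57 CPM in the WT library. The adaptor Tmem173 (STING) had 141 CPM in the KO library and 141 CPM in the WT library. Of a list of 23 interferon response genes 21 were higher, with a median of 1.10. Of 3 measured TRIM proteins whose genes carry other symbols, Pml, the organizer of nuclear bodies, had 22.6 CPM in the KO library and 11.8 CPM in the WT library, and Mid1, a microtubule-bound ligase, 73.2 CPM in the KO library and 51.1 CPM in the WT library. Mid2, the relative of Mid1, had 0.402 CPM in the KO library and 0.650 CPM in the WT library, a log2 change of -0.03.

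The TIF1, NHL-repeat, cytoskeletal and remaining members did not reach a log2 change of 0.32 in microglia-like cells in either direction. The TIF1 transcription cofactors bind modified histones or recruit repressors to them. Trim28, the KAP1 corepressor of KRAB zinc finger proteins, had 35.5 (33.7 to 37.3) CPM in the KO library and 39.4 (37.5 to 41.4) CPM in the WT library. Trim24 had 37.7 (35.8 to 39.6) CPM in the KO library and 37.4 (35.5 to 39.3) CPM in the WT library, and Trim33, a regulator of SMAD signalling, 77.2 (74.6 to 79.9) CPM in the KO library and 70.7 (68.1 to 73.4) CPM in the WT library. Their log2 changes lay between -0.12 (Trim28) and 0.11 (Trim33). The intervals of Trim28 and of Trim33 were apart between the libraries, as for some uncalled sensing members, and those of Trim24 overlapped.

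Of the members with NHL repeats, Trim2, a ligase of neurofilament light chain, had 77.2 (74.6 to 79.9) CPM in the KO library and 82.9 (80.1 to 85.8) CPM in the WT library. The Trim2 intervals were apart, with the WT level the higher. Trim3 and Trim32 had log2 changes of 0.07 and -0.03. Of the members tied to the cytoskeleton, Trim36, a microtubule-associated ligase, had 36.3 (34.5 to 38.2) CPM in the KO library and 36.4 (34.5 to 38.3) CPM in the WT library, practically the same level. The 20 remaining measured members ranged from -0.17 (Trim8, a regulator of cytokine signalling, 82.5 CPM in the KO library and 93.97 CPM in the WT library) to 0.19 (Trim47).

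Per cell, Trim30a RNA was detected in more microglia-like cells of the KO library. With each cell thinned to 1000 UMIs, 22.5% (21.2 to 23.8, exact binomial) of 4138 KO cells and 10.8% (9.77 to 11.9) of 3470 WT cells had a Trim30a UMI, with 25 KO and 84 WT cells left out as too shallow. Without thinning the shares were 76.3% and 56.2%, at a median of 6783 UMIs per KO cell and 8276 per WT cell. Trim25 was detected after thinning in 3.53% (2.99 to 4.14) of KO and 1.59% (1.20 to 2.06) of WT microglia-like cells. Trim9, whose level was highest in astrocyte-like cells, was detected in 0.0242% of these KO cells and 0.0576% of these WT cells. It had only 1052 KO and 1140 WT UMIs in kept cells, against 23057 and 11366 for Trim30a, so it cannot gauge free RNA of Trim30a. Trim30a was detected in 3.08% of KO and 2.09% of WT mural-like cells at medians of 2412 and 2798 UMIs, below its microglial shares. For Trim25 no such background is given.

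All 3 microglia-like clusters showed the pattern, including the cluster led by Tnf, Ccl3, Ccl4 and Atf3, genes of an activated state. Trim30a had 271 CPM in KO cells and 123 CPM in WT cells of that cluster, and its log2 change was 1.08. In the cluster led by P2ry12 and Slc2a5 it was 1.07, and in the cluster led by Sall3 and Kcnk12 it was 1.10. Trim25 was more uneven over these clusters, with log2 changes of 0.61, 0.67 and 0.36 in the same order.

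Endothelial-like cells of the KO library had higher levels of 6 genes of the chromosome 7 cluster and of Trim25, Trim56 and Trim21. Of 40 measured members 9 were higher and 0 lower, where 1.69% of all 14532 measured genes were higher and 1.4% lower. Trim30d had 40.8 (37.8 to 44.01) CPM in the KO library and 16.04 (14.4 to 17.9) CPM in the WT library, a log2 change of 0.96. Trim12a followed, at 121 (116 to 127) CPM in the KO library and 59.9 (56.6 to 63.4) CPM in the WT library, a log2 change of 0.91. Trim12c stood at 87.1 (82.7 to 91.7) CPM in the KO library and 42.7 (39.9 to 45.6) CPM in the WT library, a change of 0.88.

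Trim30a, which had the largest log2 change on the CPM + 10 scale in microglia-like cells, had 159 (153 to 166) CPM in KO and 87.2 (83.2 to 91.3) CPM in WT endothelial-like cells, with a log2 change of 0.80. Trim34a had 71.5 (67.5 to 75.6) CPM in the KO library and 40.2 (37.5 to 43.03) CPM in the WT library, a change of 0.70. Trim30c, present in microglia-like cells, was nearly missing here, at 1.13 (0.681 to 1.77) CPM in the KO library and 0.387 (0.167 to 0.762) CPM in the WT library. The difference between the classes was not tested, since each class has 1 library per genotype.

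Of the sensing members, Trim25 had 76.1 (72.02 to 80.4) CPM in KO and 53.5 (50.4 to 56.8) CPM in WT endothelial-like cells (log2 change 0.44). Trim56 had 72.1 (68.1 to 76.3) CPM in the KO library and 53.4 (50.3 to 56.6) CPM in the WT library (log2 change 0.37). Trim21 had 17.6 (15.6 to 19.7) CPM in the KO library and 11.4 (10.00 to 12.96) CPM in the WT library (log2 change 0.36). Trim14, higher in KO microglia-like cells, was at 55.00 (51.5 to 58.7) CPM in the KO library and 57.7 (54.5 to 61.1) CPM in the WT library here, with overlapping intervals. Trim6 had 14.9 (13.1 to 16.8) CPM in the KO library and 9.28 (8.01 to 10.7) CPM in the WT library (log2 change 0.37), and the only other class in which it was measured was microglia-like cells. The 11 microglial markers summed to 1954 CPM in KO and 2027 CPM in WT endothelial-like cells, against 18706 and 18362 CPM in microglia-like cells, and all 23 interferon response genes were higher with a median log2 change of 1.19.

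CNS-associated macrophage-like cells, named after the macrophages of meninges, vessels and choroid plexus, had 6 genes of the chromosome 7 cluster higher and 0 of the sensing members. Of 40 measured members 6 were higher and 0 lower, where 2.39% of all 13415 measured genes were higher and 5.95% lower. Trim30a had 258 (249 to 268) CPM in the KO library and 145 (136 to 154) CPM in the WT library, a log2 change of 0.79. Trim30c had 19.96 (17.3 to 22.9) CPM in the KO library and 7.43 (5.52 to 9.80) CPM in the WT library, a change of 0.78. Trim30d had 132 (125 to 139) CPM in the KO library and 73.1 (66.8 to 79.9) CPM in the WT library, a change of 0.77.

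Trim12c, Trim34a and Trim12a completed the 6. Trim12c had 63.4 (58.7 to 68.5) CPM in the KO library and 33.3 (29.1 to 37.95) CPM in the WT library (log2 change 0.76). Trim34a had 34.8 (31.3 to 38.6) CPM in the KO library and 19.6 (16.4 to 23.3) CPM in the WT library (log2 change 0.60). Trim12a had 101 (95.4 to 108) CPM in the KO library and 65.8 (59.9 to 72.3) CPM in the WT library (log2 change 0.56). Each pair of intervals was apart.

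Trim25, called in both other large classes, had 75.8 (70.6 to 81.3) CPM in KO and 67.8 (61.7 to 74.3) CPM in WT macrophage-like cells, with overlapping intervals. In these cells the 12 CNS-associated macrophage markers summed to 3325 CPM in the KO library and 4359 CPM in the WT library. The 11 microglial markers stood above them, at 12420 CPM in the KO library and 9511 CPM in the WT library. Markers of red cells summed to 15.1 CPM in the KO library and 983 CPM in the WT library, and those of endothelium to 468 and 1247 CPM. The part of these differences in the TRIM values was not tested. The class also holds a cluster led by MHC class II genes, in which Trim30a had a log2 change of 0.77, against 0.81 in the cluster led by Lyve1 and Cd163. All 23 interferon response genes were higher, with a median of 0.77.

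Over the 11 classes, the chromosome 7 cluster supplied most of the higher calls. Counting each member in each class where it was measured, 61 of 80 pairs of the cluster were higher and 2 lower. Over all genes and the same 11 classes, 8.18% of 130416 such pairs were higher and 10.2% lower, though shares differed by class, as given with each class, and the lists were not measured equally in all classes. For the sensing members 20 of 73 pairs were higher and 3 lower, and for the TIF1 cofactors 0 of 34 were higher and 3 lower. NHL-repeat members had 3 of 26 higher and 4 lower, cytoskeletal members 1 of 15 higher and 1 lower, and the remaining members 7 of 151 higher and 17 lower. The shares of lower pairs among the TIF1, NHL-repeat, cytoskeletal and remaining members stood near that background. The classes share their libraries, so these pairs are not independent.

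Trim30a, Trim30d and Trim12c were called higher in all 11 classes. Microglial markers had RNA in all 11 classes too, and their part in these calls was not tested. Trim30a ranged in log2 change from 0.55 in T cell-like cells to 1.36 in B cell-like cells, Trim30d from 0.54 in mural-like to 1.91 in monocyte-like cells, and Trim12c was lowest at 0.34 in ependymal or choroid plexus-like cells. The largest change of Trim12c was in monocyte-like cells, with 91.7 (76.6 to 109) CPM in the KO library and 32.9 (24.3 to 43.5) CPM in the WT library. Trim12a was called in 8 of the 11 and was above 0 in all of them, with its smallest change, 0.09, in B cell-like cells. Trim34a was also called higher in 8, but lower in B cell-like cells at -0.43, where it had only 14 KO and 45 WT UMIs and overlapping intervals. Trim5 was higher in 4 and lower in B cell-like cells, and Trim14 was higher in 6 of its 11 classes, Trim25, Trim56 and Trim21 in 3 each. Trim56 was lower in fibroblast-like cells, at -0.37.

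**Figure D3:**
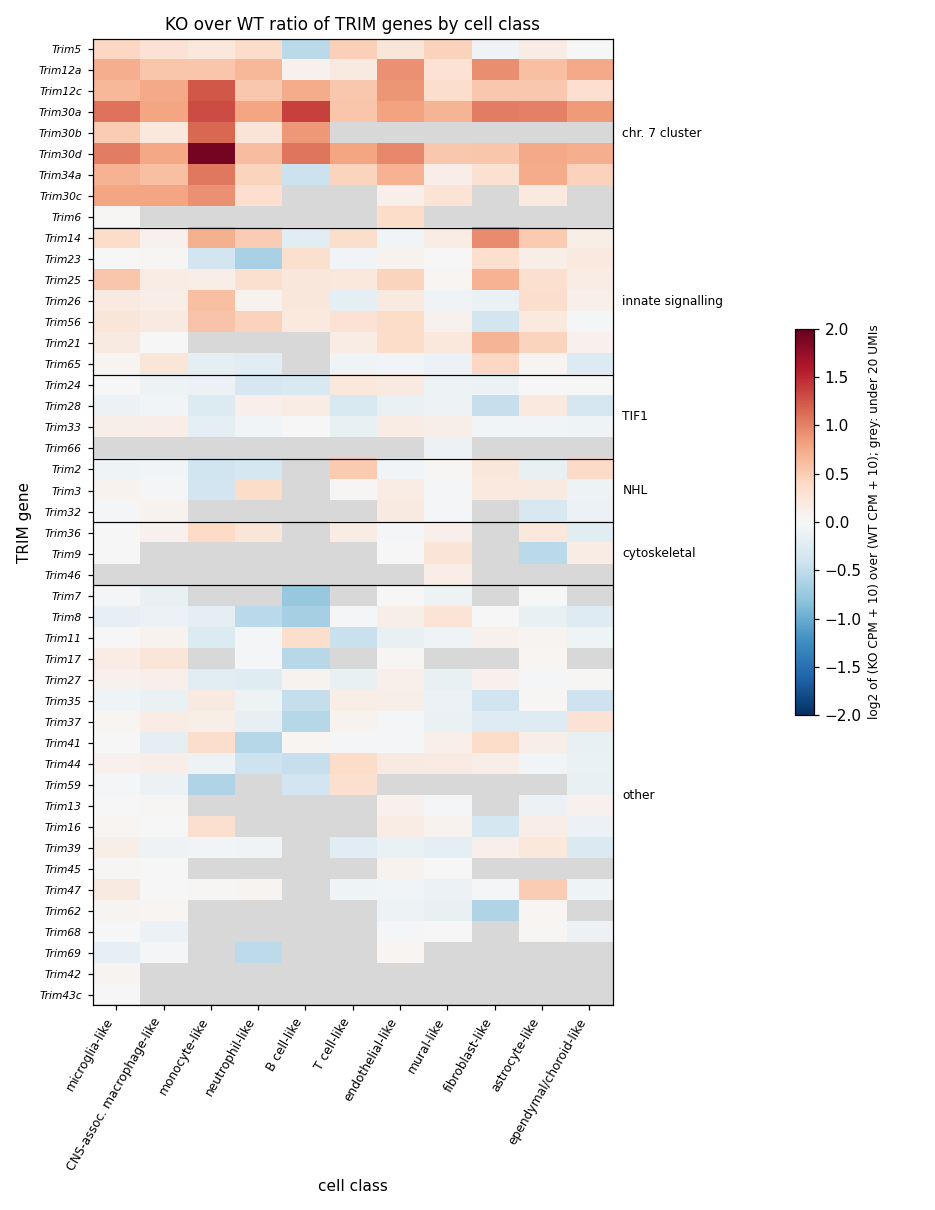
Log2 change on the CPM + 10 scale for each of the 46 measured TRIM genes (rows, grouped by role) in each of 11 cell classes (columns); grey fields had under 20 UMIs. The red block of the top rows is the chromosome 7 cluster, whose highest value is 1.91 for Trim30d in monocyte-like cells, and the blue fields lie mostly in small classes such as B cell-like and neutrophil-like cells.

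In monocyte-like cells (139 KO and 126 WT cells) 13 of 31 measured members were higher and 4 lower, where 13% of all genes were higher and 14.2% lower. Trim30d had 126 (108 to 146) CPM in the KO library and 26.2 (18.6 to 35.8) CPM in the WT library, the largest log2 change of any member in any class at 1.91. Trim30a had 308 (280.1 to 339) CPM in the KO library and 119.6 (103 to 138) CPM in the WT library (log2 change 1.30). Trim59 and Trim2 were the lowest, at -0.60 and -0.40, on 9 and 32 KO UMIs and 22 and 49 WT UMIs. The 9 monocyte markers themselves summed to 5682 CPM in the KO library and 2929 CPM in the WT library. The 11 microglial markers stood above them, at 6570 and 5965 CPM, and the 12 endothelial markers summed to 3325 and 3242 CPM. The part of these sums, and of the difference in monocyte markers, in the TRIM values was not tested.

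In neutrophil-like cells (88 KO and 177 WT cells) 10 of 31 were higher and 7 lower, where 12.9% of all genes were higher and 26.2% lower. Trim30a had 245 (217 to 276) CPM in the KO library and 138 (124 to 153) CPM in the WT library, and Trim12a 132 (111 to 155) CPM in the KO library and 78.8 (68.4 to 90.4) CPM in the WT library, with log2 changes of 0.79 and 0.67. Trim23 and Trim41 had the lowest values, -0.64 and -0.57. The 9 neutrophil markers summed to 127457 CPM in the KO library and 85228 CPM in the WT library, the monocyte markers to 1775 and 759 CPM, the mural markers to 505 and 156 CPM and the ependymal or choroid plexus markers to 6639 and 1910 CPM. The 11 microglial markers summed to 10986 CPM in the KO library and 10996 CPM in the WT library, against 18706 and 18362 CPM in microglia-like cells. The part of all these markers in the TRIM values was not tested.

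In B cell-like cells (75 KO and 150 WT cells) 6 of 25 were higher and 9 lower, where 17% of all genes were higher and 30% lower. Trim30a had 195 (157 to 240.1) CPM in the KO library and 70.02 (54.7 to 88.3) CPM in the WT library (log2 change 1.36), and Trim30d 67.3 (45.7 to 95.5) CPM in the KO library and 26.6 (17.5 to 38.7) CPM in the WT library (log2 change 1.08). Trim7, which binds the glycogen primer glycogenin, had 32.6 (18.2 to 53.7) CPM in the KO library and 62.1 (47.7 to 79.5) CPM in the WT library, at -0.76 the lowest log2 change of any member in any class. Trim8 followed at -0.67, on 6 KO and 27 WT UMIs. The 9 lower calls of 25 stood near that background. The 8 B cell markers summed to 18081 CPM in the KO library and 12379 CPM in the WT library, the endothelial markers to 362 and 1647 CPM and the ependymal or choroid plexus markers to 6893 and 3281 CPM, and their part in the TRIM values was not tested.

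In T cell-like cells (245 KO and 205 WT cells) 9 of 29 were higher and 1 lower, where 16.5% of all genes were higher and 11.5% lower. Trim30d had 73.97 (60.1 to 90.1) CPM in the KO library and 38.7 (29.4 to 50.04) CPM in the WT library (log2 change 0.79), and Trim30a 144 (124 to 166) CPM in the KO library and 95.4 (80.4 to 112) CPM in the WT library (log2 change 0.55). This was the smallest Trim30a change of the 11 classes. With T cells limited to at most 1% of UMIs in markers of another class the Trim30a change was 0.29, under the size called. Microglial markers summed to 3951 CPM in KO and 2555 CPM in WT T cell-like cells, and ependymal or choroid plexus markers to 5735 and 3127 CPM; their part in the TRIM values was not tested. Trim11 was the lower member, at -0.45 on 12 KO and 24 WT UMIs.

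In mural-like cells (1355 KO and 1377 WT cells), pericytes and smooth muscle, 4 of 39 were higher and 0 lower, where 4.11% of all genes were higher and 3.98% lower. All 4 belonged to the chromosome 7 cluster, namely Trim30a, Trim30d, Trim5 and Trim12c. Trim30a had 39.6 (34.1 to 45.7) CPM in the KO library and 20.9 (17.3 to 25.2) CPM in the WT library (log2 change 0.68), and Trim30d 19.2 (15.5 to 23.7) CPM in the KO library and 10.1 (7.61 to 13.1) CPM in the WT library (log2 change 0.54). Microglial markers in this class summed to 2897 CPM in the KO library and 3262 CPM in the WT library, 15.5% and 17.8% of their level in microglia-like cells. The Trim30a level was 14.4% and 16.8% of the microglial level, and how much of it came from microglial RNA was not tested. Markers of red cells summed to 22.7 CPM in the KO library and 1689 CPM in the WT library, and ependymal or choroid plexus markers to 10504.5 and 5911 CPM. Their part in the TRIM values was not tested.

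In fibroblast-like cells (197 KO and 143 WT cells) 10 of 29 were higher and 5 lower, where 15.4% of all genes were higher and 17.4% lower. Trim30a had 137 (115 to 161) CPM in the KO library and 61.9 (46.1 to 81.4) CPM in the WT library (log2 change 1.03), and Trim14 41.8 (30.5 to 55.96) CPM in the KO library and 16.99 (9.29 to 28.5) CPM in the WT library (log2 change 0.94). Trim62 and Trim28 were the lowest, at -0.61 and -0.47, on 16 and 31 KO UMIs and 23 and 36 WT UMIs, with overlapping intervals. Trim25, at 51.1 (38.5 to 66.5) CPM in the KO library and 27.9 (17.7 to 41.9) CPM in the WT library, was also called here. The 10 fibroblast markers summed to 4667 CPM in the KO library and 6838 CPM in the WT library, below the 12 endothelial markers at 7743 and 8063 CPM. Microglial markers stood at 3805 CPM in the KO library and 2947 CPM in the WT library, and the part of these in the TRIM values was not tested.

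Among astrocyte-like cells (1041 KO and 714 WT cells) 9 of 37 were higher and 2 lower, where 11.9% of all genes were higher and 9.4% lower. Trim30a had 101 (91.5 to 112) CPM in the KO library and 45.5 (37.4 to 54.8) CPM in the WT library (log2 change 1.01), and Trim30d 53.9 (46.8 to 61.7) CPM in the KO library and 27.7 (21.5 to 35.2) CPM in the WT library (log2 change 0.76). The class also carried much microglial RNA, 6344 CPM of the 11 microglial markers in the KO library and 4790 CPM in the WT library, with 0 of the 11 undetected. These sums were 33.9% and 26.1% of those in microglia-like cells, and the Trim30a level was 36.8% and 36.5% of that in microglia-like cells. Ependymal or choroid plexus markers summed to 11408 CPM in the KO library and 7237 CPM in the WT library. Endothelial markers summed to 3067 and 2512 CPM, and mural markers to 932 and 455 CPM. The part of all these markers in the TRIM values was not tested. When astrocytes were instead chosen cell by cell from their own marker UMIs, 86 KO and 83 WT cells had 27.5 CPM of Trim30a in the KO library and 35.6 CPM in the WT library, from 23 and 32 UMIs. The direction of Trim30a, Trim30d and Trim12a in astrocytes therefore depended on how astrocytes were chosen.

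Trim9, a brain ligase known in neurons for its place in netrin and DCC signalling, was lower in KO astrocyte-like cells, at 157 (145 to 169.9) CPM in the KO library and 233 (214 to 253) CPM in the WT library (log2 change -0.54), and Trim32 was also called lower at -0.33. The summed astrocyte markers stood at 10272 CPM in the KO library and 13192 CPM in the WT library. Neuron markers summed to 372 and 398 CPM. The part of these sums in the Trim9 value was not tested. After thinning to 1000 UMIs, 12.5% (9.84 to 15.6) of 535 KO and 15.95% (12.1 to 20.4) of 326 WT astrocyte-like cells had a Trim9 UMI, with 506 KO and 388 WT cells left out, and these intervals overlapped.

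In ependymal or choroid plexus-like cells (1256 KO and 691 WT cells) 6 of 34 were higher and 2 lower, where 5.97% of all genes were higher and 9.36% lower. Trim30a had 53.4 (46.9 to 60.6) CPM in the KO library and 25.3 (19.8 to 31.8) CPM in the WT library (log2 change 0.85), and Trim12a 37.1 (31.7 to 43.1) CPM in the KO library and 17.9 (13.3 to 23.5) CPM in the WT library (log2 change 0.75). Trim35 and Trim28 were lower, at -0.42 and -0.34. The 11 microglial markers summed to 3580 CPM in the KO library and 3570 CPM in the WT library, against 18706 and 18362 CPM in microglia-like cells. How much of the Trim30a level came from microglial RNA was not tested. Different clusters held most of the class in the libraries, an ependymal cluster led by Ccdc153 with 682 of the KO and 255 of the WT cells and a choroid plexus cluster led by Ttr with 574 and 436.

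**Figure D4:**
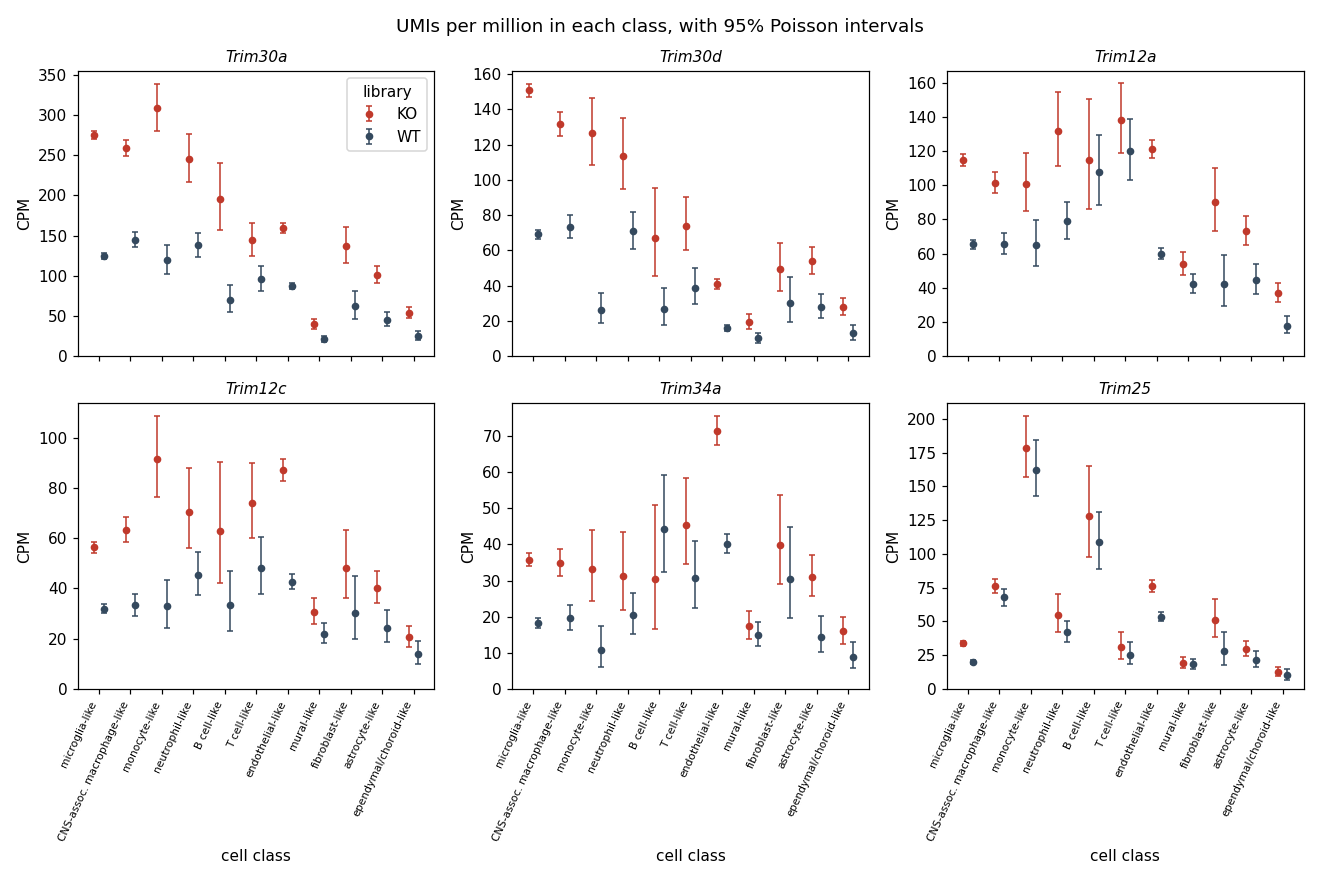
CPM with 95% Poisson intervals of 6 TRIM genes in each of 11 cell classes, KO library left in red and WT library right in blue-grey. Trim30a and Trim30d lie above their WT value in every class, while Trim34a in B cell-like cells lies below it, and the intervals of Trim25 overlap in all classes but microglia-like and endothelial-like cells.

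The comparison was repeated in each cluster. Over the 28 clusters with at least 50 cells in each library, Trim30a was called higher in 27 of the 28 in which it was measured, Trim30d in 24 of 27, Trim12c in 23 of 27, Trim12a in 22 of 28, Trim34a in 20 of 26 and Trim25 in 15 of 25. The exception for Trim30a was an unnamed cluster led by genes of motile cilia such as Dnah12 and Spag17, with a median of 18825 UMIs per cell. There Trim30a had 44.6 CPM in the KO library and 49.6 CPM in the WT library, a log2 change of -0.13. Trim33 was called higher in 2 and lower in 1 of the same 28. The share of all genes called was not computed per cluster, so these counts have no such background beside them. Over the 11 classes, the share of all genes called higher ranged from 1.1% (microglia-like) to 17% (B cell-like).

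Besides the difference between the libraries, TRIM genes varied in where they were found, and 5 members had a level in a single class at least 2 times that of any other class in both libraries. Trim6 led in endothelial-like cells, its next class being neutrophil-like at 4.47 CPM in the KO library and 3.85 CPM in the WT library. Trim9 led in astrocyte-like cells, where the next class reached only 4.11 CPM in the KO library (mural-like) and 2.11 CPM in the WT library (ependymal or choroid plexus-like). Of the 11 classes, astrocyte-like cells also had the highest sum of neuron markers, 372 CPM in the KO library and 398 CPM in the WT library. Markers of olfactory ensheathing-like glia were highest there too, at 489 and 445 CPM. The part of these cells in the Trim9 level was not tested. Trim7 led in B cell-like cells, with CNS-associated macrophage-like cells next at 4.99 CPM in the KO library and 6.54 CPM in the WT library.

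Trim30b led in neutrophil-like cells at 69.8 (55.2 to 87.1) CPM in the KO library and 56.5 (47.8 to 66.4) CPM in the WT library, ahead of B cell-like cells at 28.2 and 10.8 CPM. Trim66, a TIF1 relative, led in mural-like cells at 3.24 (1.82 to 5.35) CPM in the KO library and 4.41 (2.82 to 6.56) CPM in the WT library, on 15 and 24 UMIs. Clustering did not use any TRIM gene. Chromosome 7 members thus differed in place as well: the level of Trim30b was highest in neutrophil-like cells and that of Trim6 in endothelial-like cells, whereas Trim30a was present in every class. By number, more Trim30b UMIs came from the many microglia-like cells, 530 in the KO library and 236 in the WT library, than from neutrophil-like cells, 78 and 147.

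**Figure D5:**
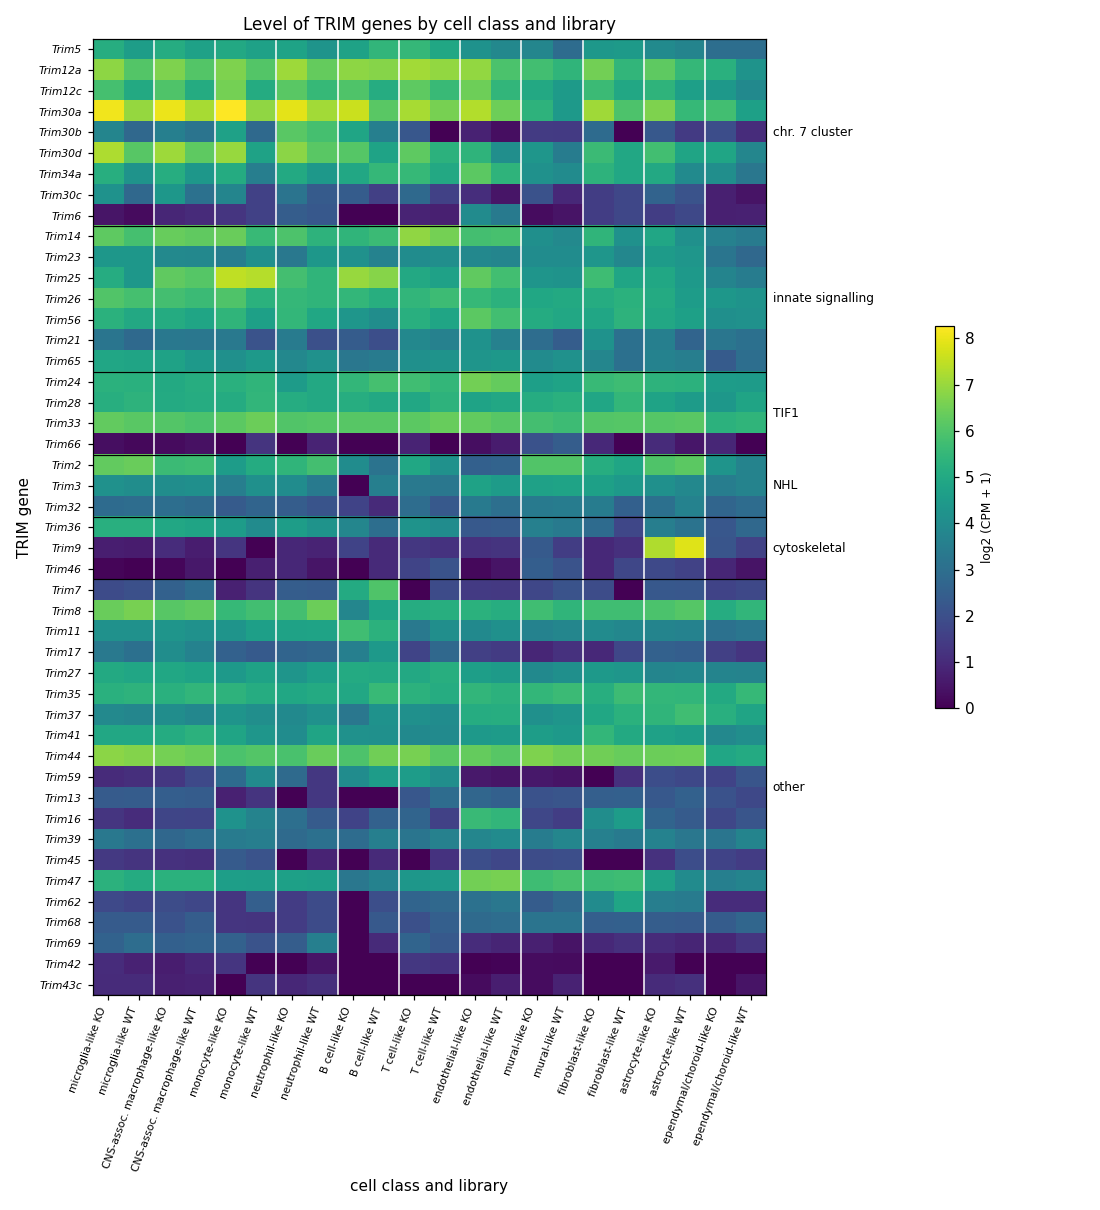
Level as log2 (CPM + 1) of each of the 46 measured TRIM genes (rows) in each class, KO library left and WT library right within a class (columns). Rows are to be read across, since levels of different genes are not scaled for length; Trim9 stands out in astrocyte-like cells, Trim7 in B cell-like cells and Trim16 and Trim47 in endothelial-like cells.

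Trim30a was highest in the myeloid classes. Its order in the KO library was monocyte-like, microglia-like, CNS-associated macrophage-like and neutrophil-like cells, from 308 (280.1 to 339) to 245 (217 to 276) CPM, with monocyte-like and microglia-like cells not apart beyond counting error, nor CNS-associated macrophage-like and neutrophil-like cells. In the WT library the same 4 classes led, in the order CNS-associated macrophage-like, neutrophil-like, microglia-like and monocyte-like, from 145 (136 to 154) to 119.6 (103 to 138) CPM, with each neighbour overlapping the next. Mural-like cells were lowest in both libraries. All of these classes held RNA of microglial markers, and its part in the order was not tested.

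Other members favoured vessels. The annotated start of Trim47 overlaps the end of Trim65 on the same strand. Of the 90-base windows in the last 500 bases of Trim47 transcripts, 7.98% also occurred in Trim65, so part of its reads may belong to either. Trim47 had its highest level in endothelial-like cells, 91.1 (86.6 to 95.8) CPM in the KO library and 94.8 (90.7 to 99.1) CPM in the WT library, followed by mural-like cells at 51.7 and 56.8 CPM. Trim16, a galectin-binding ligase of damaged lysosomes, also stood highest there, at 47.98 (44.7 to 51.4) CPM in the KO library and 42.4 (39.7 to 45.3) CPM in the WT library, against 1.40 and 1.05 CPM in microglia-like cells. Neither endothelial level differed between the libraries by the size called. Trim2 had the opposite order, with 77.2 and 82.9 CPM in microglia-like cells and 4.76 and 5.27 CPM in endothelial-like cells of the KO and WT libraries.

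Trim25 and Trim14 were not led by microglia-like cells either. Trim25 was highest in monocyte-like cells, at 179 (157 to 202) CPM in the KO library and 163 (143 to 184) CPM in the WT library, and microglia-like cells stood at 33.7 and 19.8 CPM. Trim14 was highest in T cell-like cells, at 119 (101 to 139) CPM in the KO library and 91.4 (76.8 to 108) CPM in the WT library. The levels of Trim25 in monocyte-like cells overlapped between the libraries, while those in microglia-like cells did not.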

How the data were processed

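Single-cell 3-prime libraries (10x, v3.1 chemistry) of 1 KO and 1 WT group were analysed. The authors deposited whole-number UMI counts for each gene in each barcode, not normalized. The file headers give Cell Ranger 7.0.1. The submitters' processing notes also name STAR, Seurat 3.1.1 and GRCm38 (mm10). How reads that match several genes were counted is not given in the sources used here.

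Cells were kept at 300 genes, 500 UMIs and at most 10% mitochondrial UMIs. Scrublet in scanpy 1.11.5 (Python 3.11.15) then marked 724 KO and 174 WT cells as doublets, 4.10% and 1.05%, against the 15.3% and 14.6% its loading rate predicts, so doublets remain. Both libraries were clustered together (2000 variable genes without TRIM genes, 30 components, 15 neighbours, Leiden resolution 1). A cluster could be named "X-like" when at least 3 markers of a class were in 25% of its cells at a log2 fold of 1. It stayed unnamed when a second class had at least 0.5 times as many markers, or when its leading genes held more markers of another class. Clusters with low UMIs and no marker of their own class among the leading genes also stayed unnamed. Classes rebuilt in this way may differ from the study's.

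UMIs were summed by class and library, scaled to CPM and compared after adding 10 CPM, with classes needing 50 cells in each library. Intervals (95%; exact Poisson, exact conditional binomial for ratios, Clopper-Pearson for shares) cover counting error only. With 1 library per genotype no test was made. The calculation was tested on simulated data.

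Members and gene lists were chosen with earlier results of these data known. Named in the text are, by rule, measured members of the chromosome 7 cluster and sensing members in microglia-like cells, members called in the 3 large classes, the 2 highest and 2 lowest called elsewhere, and members led by a single class. Others were named after their values were seen. Promoters are from RefSeq and gene positions from GENCODE, both on GRCm38. Alternatives were other pseudocounts, minimums, thresholds, scalings, cell filters, doublets kept, other resolutions, cells chosen by their own markers, and cells low in markers of other classes.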

Additional observations from a re-analysis of the deposited data

Results flagged for a closer look

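Trim44, a regulator of ubiquitin turnover without a RING, moved in opposite directions in 2 classes. Its log2 change was 0.36 in T cell-like cells, from 124 KO and 106 WT UMIs, and -0.41 in neutrophil-like cells, from 66 KO and 212 WT UMIs. The difference between the classes was not tested. With cells limited to at most 1% of UMIs in markers of another class, both values came close to 0.

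Cells of clusters that markers did not name entered no comparison between classes. Over all of them, 8 of the 46 members measured were higher in the KO library and 0 lower, where 3.8% of all 17728 genes measured there were higher and 3.43% lower. Among the genes of the chromosome 7 cluster the log2 change was 0.76 for Trim30a (4081 KO and 2452 WT UMIs), 0.78 for Trim12c (2105 and 1180), 0.72 for Trim12a (2859 and 1740), 0.71 for Trim30d (1247 and 701) and 0.66 for Trim34a (1539 and 932). Among the sensing members it was 0.46 for Trim25 (1452 and 1045), 0.42 for Trim56 (1784 and 1352) and 0.38 for Trim21 (416 and 274).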

How the results depend on the processing

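No paired analysis was possible because each genotype has 1 library. Shares in parentheses are those over all genes under the same setting. With a pseudocount of 1 CPM, 10 members were higher (9.76%) and 3 lower (15.5%) in CNS-associated macrophage-like cells, and 1 was lower (6.35%) in microglia-like cells. With 50 CPM, 5 were higher in endothelial-like (0.709%) and 5 in microglia-like cells (0.465%). At a ratio of 1.5, 5 were higher in endothelial-like (0.619%) and 6 in microglia-like cells (0.446%), and at a ratio of 2, 0 in CNS-associated macrophage-like (0.0671%), 0 in endothelial-like (0.206%) and 2 in microglia-like cells (0.167%). Among CNS-associated macrophage-like cells, 5 of 25 measured members were lower (22.7%) when cells were chosen by their own marker UMIs, and 1 of 35 (7.2%) with at most 1% of UMIs in markers of another class. Another UMI minimum cannot alter the value of a member still measured, and a higher threshold cannot reverse a direction. Part of the following totals was therefore fixed in advance. Of the changes of single members under all alternatives, 1350 kept their direction and call, 328 fell under the size called and 9 turned round.

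Those that turned round were, in astrocyte-like cells chosen by their own markers, Trim30a (-0.28), Trim30d (-0.27) and Trim12a (-0.19), with a chromosome 7 cluster median of -0.19, and Trim2 in neutrophil-like cells chosen in this way (0.18). Without the mitochondrial limit Trim41 was -0.067 and Trim56 0.14 in fibroblast-like cells, and with 1000 UMIs and 5% mitochondrial UMIs Trim21 was -0.080 in astrocyte-like cells. With at most 1% of UMIs in markers of another class, Trim44 was -0.0085 in T cell-like and 0.0064 in neutrophil-like cells. The causes were not tested. Low UMI sums in the small classes limit these values.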
